A study of Mus musculus with 2 samples.

Results

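The outer mid-lobular zone of the mouse liver lobule, on its portal side, is the group of tissue spots chosen by 2 measured values, the Cyp2f2 and Cyp2e1 UMIs of a spot, as those between the 60th and 80th percentile of R, where R is log2 of Cyp2f2 UMIs plus 1 over Cyp2e1 UMIs plus 1 in a spot. Spots were ranked within each section and divided into 5 equal zones, pericentral, inner mid-lobular, middle, outer mid-lobular and periportal, in 1 section of AEG-1 wild-type liver (WT) and 1 of the AEG-1 mutant C75S, after 7 spots of the former and 4 of the latter with more than 50000 UMIs had been left out. The zone held 462 of 2309 kept spots in WT and 433 of 2163 in C75S, that is 895 of 4472 kept spots and of 4483 spots in all. R ran from -1.75 to -0.62 in WT and from -1.48 to -0.59 in C75S, so that these spots still held more Cyp2e1 than Cyp2f2 UMIs. At the lower limit, the spots just inside and just outside had R of -1.75 and -1.75 in WT and of -1.48 and -1.49 in C75S, and 2 members of WT were tied in R with spots outside. At the upper limit, the corresponding values were -0.62 and -0.62 in WT and -0.59 and -0.58 in C75S. The zone is a class cut from a score that changes gradually, and it is neither a cell type nor a measured distance from a vessel.

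Blood runs through a liver lobule from the portal tract, which holds the portal vein, the hepatic artery and the bile duct, to the central vein, and hepatocytes along this path divide the work. Periportal hepatocytes are known for gluconeogenesis, urea synthesis and amino acid breakdown, pericentral hepatocytes for bile acid synthesis and cytochrome P450 reactions, and mid-lobular hepatocytes for hepcidin and Igfbp2. Kupffer cells, the resident macrophages, lie in the sinusoids beside endothelial and stellate cells, while bile duct cells, fibroblasts and smooth muscle lie in the portal tract. Cyp2f2 (GRCm38, chr7:27119955-27133660) is a cytochrome P450 of portal hepatocytes, and Cyp2e1 (chr7:140763819-140774990) one of central hepatocytes. Igfbp2 (chr1:72824480-72852474) encodes a secreted binding protein of insulin-like growth factors, and Marco (chr1:120474538-120505024) a scavenger receptor of macrophages.

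The study asked how palmitoylation of AEG-1, a protein encoded by Mtdh, affects the liver. WT mice carried the unchanged gene, and C75S mice carried a CRISPR/Cas9 knock-in that replaces the palmitoylated cysteine at position 75 by serine. Both were naive, untreated females of 8 weeks, littermates from heterozygous parents, and 1 formalin-fixed section of 5 μm from 1 mouse of each genotype was placed on a 10x Visium slide, on which pairs of probes report the RNA under each barcoded spot as unique molecular identifiers (UMIs). A spot collects RNA from several cells, so fewer cells of a type and less RNA per cell cannot be told apart.

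With 1 section per genotype and no replicate, genotype, animal and section cannot be told apart, spots are not replicates, and no test was made. For each zone the UMIs of a gene were added up and scaled to the total of all genes, as CPM, and a difference is given as a log2 ratio with a 95% exact binomial interval. These intervals, and the exact Poisson intervals of single levels, cover counting error only. The outer mid-lobular zone held 8668115 UMIs in WT, with a median of 17128.5 per spot, and 8919675 in C75S, with a median of 21533 per spot. The medians of the middle and periportal zones beside it were 18159 and 15865 UMIs in WT and 18219.5 and 17785 in C75S, so the spots of the outer mid-lobular zone were the deepest of the 3 only in C75S. The sections shared 1896 spot barcodes, 79 of them among the members of both sections, since slides reuse one barcode set. Mtdh was at 75.6 CPM in WT and 75.8 CPM in C75S in the zone, a value that checks nothing about the edited codon.

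The members lay where the rule put them, and the genes that the rule did not use followed. Cyp2f2, used for the rank, was at 1184, 1760.1 and 2445 CPM in WT and 1467, 2063 and 2775 CPM in C75S in the middle, outer mid-lobular and periportal zones. Cyp2e1, also used, was at 6755, 4108 and 2153 CPM in WT and 6524, 4283 and 2296 CPM in C75S. The summed level of 18 periportal hepatocyte genes, none of which was used, was 12527, 14443 and 16907 CPM in WT and 10620.0, 11969 and 14535 CPM in C75S, and that of 16 pericentral genes was 6569, 5005 and 3838 CPM in WT and 6111, 4955 and 3888 CPM in C75S. Both sums in the outer mid-lobular zone lay between those of its neighbours in each section. Of the markers proposed for these spots, Igfbp2 did not mark them, since it was highest in the middle zone, at 1223, 1150.2 and 1061 CPM in WT and 2684, 2527 and 2399.6 CPM in C75S. Without spots rich in bile duct and connective tissue genes it was at 1213, 1254 and 1116 CPM in WT and 2634, 2640.0 and 2482 CPM in C75S, and the outer mid-lobular zone was then highest, although in C75S it was nearly equal to the middle zone. None of 3 tested mid-lobular genes was 1.2-fold from either neighbour, beside 3.44% of all genes against the middle and 4.46% against the periportal zone. For 3 genes this is near the share over all genes. Hamp and Hamp2, which encode hepcidin and its relative, were also highest in the middle zone in both sections. Marco was highest in the outer mid-lobular zone, by a margin over the middle zone that was within counting error in both sections. The spots are therefore described by their rank, between the middle and the periportal zone.

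**Figure D1:**
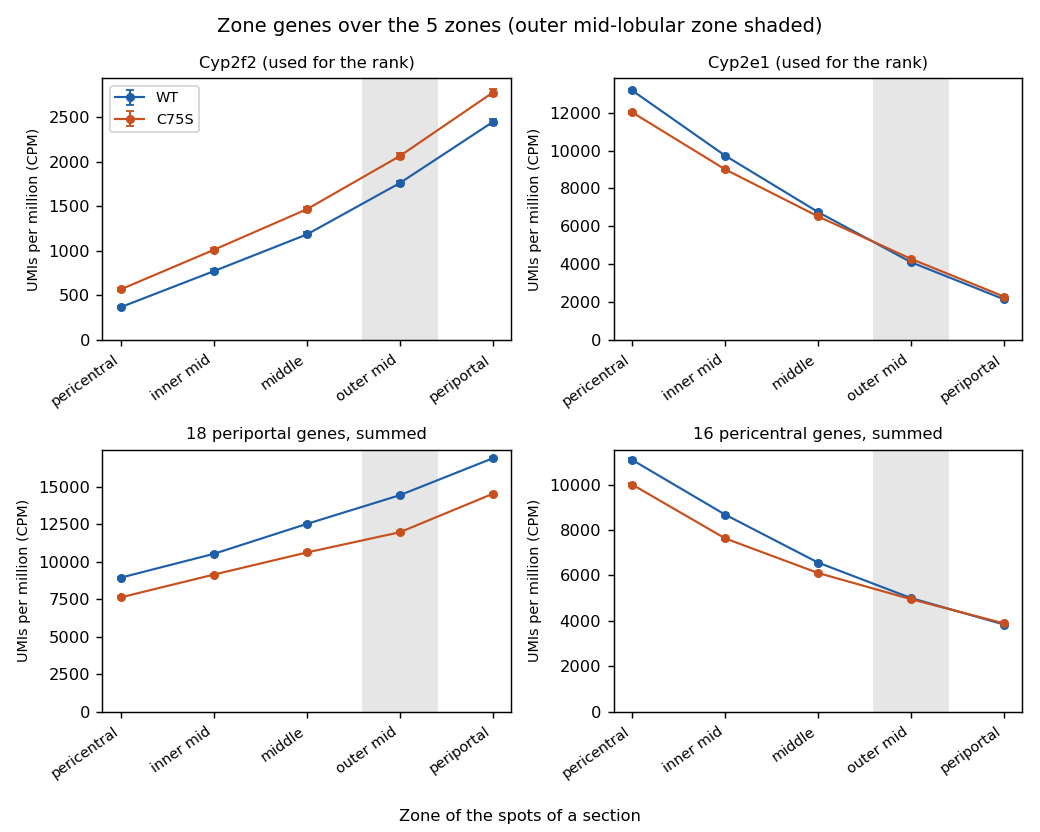
CPM of Cyp2f2, Cyp2e1 and the summed periportal and pericentral gene lists (y axes) over the 5 zones of each section (x axes), for WT in blue and C75S in orange, with 95% Poisson intervals as bars that are mostly smaller than the points. The outer mid-lobular zone, shaded, lies between its neighbours in all panels, with periportal genes at 14443 and 11969 CPM. For Cyp2f2 and Cyp2e1 this follows from their use in the rank.

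Against the middle zone, the outer mid-lobular zone held more RNA of 10 periportal hepatocyte genes, among them Aldh1b1, Sds, Cyp17a1 and Cdh1. Of 9023 genes compared, 152 (1.68%) were at least 1.2-fold higher and 158 (1.75%) at least 1.2-fold lower in both sections, 3.44% in either direction. Counting intervals were apart from 0 in both sections for 58 of the higher and 70 of the lower genes. Of 18 periportal genes, 10 were higher and 0 lower, with medians of the log2 ratio of 0.40 in WT and 0.28 in C75S, beside -0.02 and -0.03 over all genes. Aldh1b1, a mitochondrial aldehyde dehydrogenase, was at 58.8, 115 and 189 CPM in WT and 43.7, 86.3 and 141 CPM in C75S in the middle, outer mid-lobular and periportal zones. Its log2 ratio over the middle zone was 0.96 (0.81 to 1.12) in WT and 0.98 (0.80 to 1.17) in C75S, and it ranked next after Spp1. Sds, the serine dehydratase that feeds gluconeogenesis, had log2 ratios of 0.70 in WT and 0.97 in C75S, and Cyp17a1, a steroid hydroxylase, of 0.68 in WT and 0.58 in C75S. Cdh1, the E-cadherin of periportal hepatocytes and bile ducts, was at 29.9, 45.2 and 65 CPM in WT and 27.8, 47.6 and 55.9 CPM in C75S. Etnppl, which degrades phosphoethanolamine, Slc3a1, a cystine transporter subunit, and Hsd17b13, a lipid droplet protein, were also among the 10 genes farthest above the middle zone.

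Genes of the central side were already lower at this point of the axis. Of 15 pericentral genes compared, 11 were lower and 0 higher than in the middle zone, with medians of -0.55 and -0.44. Cyp7a1, the rate-limiting enzyme of bile acid synthesis, was at 203, 128 and 75.7 CPM in WT and 71.5, 46.9 and 29.6 CPM in C75S. Gulo, the last enzyme of vitamin C synthesis, was at 318, 196 and 112 CPM in WT and 293, 204 and 105 CPM in C75S, and its log2 ratio over the middle zone was -0.70 in WT and -0.52 in C75S. Cyp1a2, which oxidises aromatic amines, had log2 ratios of -0.62 in WT and -0.59 in C75S, and Ahr, the receptor that controls it, of -0.49 in WT and -0.46 in C75S. Lect2, Cyp3a44, Cyp2c69, Mup11 and Slco1a1 completed the lower end with Aldh3a2, and Cyp2c and Mup genes have near-identical relatives among which probe counts may be shared. In bile acid synthesis, 4 of 7 genes were lower than in the middle zone, namely Cyp7a1, Cyp27a1, Cyp7b1 and Hsd3b7, while Baat and Slc27a5, which conjugate bile acids, had log2 ratios between -0.06 and 0.02.

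Against the periportal zone, the picture was not a mirror image, since more genes were higher than lower. Of 9019 genes compared, 309 (3.43%) were at least 1.2-fold higher and 93 (1.03%) at least 1.2-fold lower in both sections, 4.46% in either direction, with intervals apart from 0 in both for 117 and 46 of them. This split moved with the scaling, and was 208 higher and 158 lower with TMM factors and 231 higher and 138 lower when each ratio was centred on the median gene. With spots matched on total UMIs it was 368 higher and 214 lower. That setting kept 212 spots per zone and section and dropped the minimum of 200 UMIs over the 5 zones, so its counts are not of the same genes. Against the middle zone, centring gave 189 higher and 117 lower, and leaving out spots rich in duct and connective tissue genes 71 higher and 205 lower. Of 15 pericentral genes, 13 were higher than in the periportal zone, and of 18 periportal genes, 10 were lower. Oat, which feeds ornithine into glutamate synthesis, was at 602, 399.9 and 218 CPM in WT and 419.6, 328 and 181 CPM in C75S, with log2 ratios over the periportal zone of 0.87 in WT and 0.86 in C75S. Slco1a1, an organic anion transporter, was at 45.9, 33.5 and 19.8 CPM in WT and 43.9, 29.5 and 13.4 CPM in C75S. The genes farthest below the periportal zone were Aldh1b1, with log2 ratios of -0.72 in WT and -0.71 in C75S, then Slc3a1, Sds, Fasn, Pck1, Cryl1, Hal, Gldc, Etnppl and Sult5a1.

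**Figure D2:**
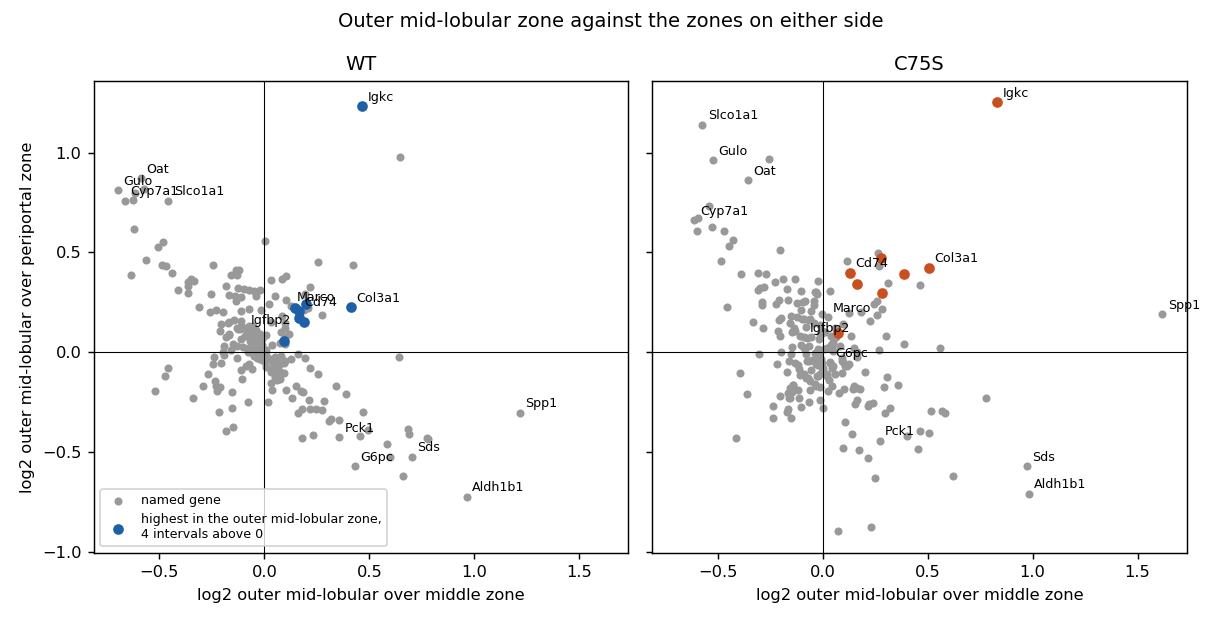
Log2 ratio of the outer mid-lobular over the middle zone (x axis) and over the periportal zone (y axis) for named genes with at least 200 UMIs in the outer mid-lobular zone of each section, 1 point per gene, WT left and C75S right. Most genes lie on a falling diagonal from Gulo and Oat to Sds and Aldh1b1, and coloured genes such as Igkc, Cd74 and Col3a1 lie above 0 on both axes.

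Periportal genes differed in where along the axis they became more abundant. Fasn, the fatty acid synthase, was at 141, 160.1 and 216 CPM in WT and 123, 132 and 184 CPM in C75S, so that most of its gain came beyond the outer mid-lobular zone. Pck1 and Fbp1, enzymes of gluconeogenesis, were at 1732, 2217 and 2979 CPM in WT and 1412, 1703 and 2316 CPM in C75S for Pck1 and 1565, 1822 and 2222 CPM in WT and 1446, 1621 and 1914 CPM in C75S for Fbp1. C9, a terminal complement component, was at 248, 256 and 269.7 CPM in WT and 190.3, 204 and 233 CPM in C75S, and in WT its level in the outer mid-lobular zone was close to that of both neighbours. Cps1, the first enzyme of the urea cycle, had log2 ratios over the middle zone of only 0.05 in WT and 0.02 in C75S. Among 51 genes that were higher at each step from the middle to the periportal zone in both sections, and over both steps by at least the square of the 1.2-fold limit, the median share of the log2 gain reached at the outer mid-lobular zone was 56.0% in WT and 49.9% in C75S, with a 5th to 95th percentile range of 18.1% to 76.6% and of 17.7% to 82.7%. Among 84 genes that were lower by as much, the medians were 48.5% and 43.6%. Within the zone, the portal-side spots were set against the central-side spots (231 against 231 in WT and 217 against 216 in C75S). Aldh1b1 was at 139 against 90.8 CPM in WT, a log2 ratio of 0.62 (0.43 to 0.80), and 102 against 71.8 CPM in C75S, a log2 ratio of 0.50 (0.29 to 0.71). Gulo was at 179 against 213 CPM in WT, a log2 ratio of -0.25 (-0.39 to -0.11), and 198 against 209.9 CPM in C75S, a log2 ratio of -0.08 (-0.22 to 0.05). The grading of Aldh1b1 was thus beyond counting error in both sections, and that of Gulo in WT only.

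A small set of genes was higher in the outer mid-lobular zone than on either side. In 11 of 9019 genes (0.122%) the 4 intervals, against both neighbours in both sections, lay above 0, and in 1 (0.0111%), Cluh, all lay below 0, with levels of 262, 243 and 263 CPM in WT and 259.6, 239.5 and 283 CPM in C75S. In single sections 70 genes (0.776%) of WT and 53 (0.588%) of C75S lay above both neighbours, and 29 (0.322%) and 107 (1.19%) below both. The split of 11 to 1 depended on the scaling, with 6 above and 7 below under TMM factors and 7 and 2 when centred on the median gene. It was 4 and 0 with spots matched on total UMIs, which kept only 212 spots per zone and section and so widened the intervals. The 11 genes were Cd74, H2-Aa, H2-Ab1, H2-Eb1, Igkc, Col1a1, Col3a1, Gas6, Ifi203, Mt1 and Serpina1b. The first 4 encode the invariant chain and the chains of MHC class II molecules, with which B cells, dendritic cells and macrophages present antigens. Cd74 was at 385, 431 and 374 CPM in WT and 396, 434 and 329 CPM in C75S in the middle, outer mid-lobular and periportal zones, with log2 ratios over the middle zone of 0.16 (0.10 to 0.23) and 0.13 (0.06 to 0.20) and over the periportal zone of 0.21 (0.14 to 0.28) and 0.40 (0.33 to 0.47). H2-Aa was at 117, 129 and 111 CPM in WT and 102, 124 and 89.6 CPM in C75S, and H2-Eb1 at 48.6, 55.7 and 47.2 CPM in WT and 43, 56.3 and 42.9 CPM in C75S. Each of these genes was thus highest in the outer mid-lobular zone of both sections, by a margin that was modest in size. H2-DMa, which loads peptides onto these molecules, and Fcgr3, an Fc receptor of myeloid cells, were among the 10 genes whose smallest ratio to a neighbour was largest, at 22.6, 25.4 and 22.4 CPM in WT and 21.3, 25.6 and 18.1 CPM in C75S for H2-DMa.

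The level of the MHC class II genes in the outer mid-lobular zone changed once spots rich in portal tract genes were left out. Spots with at least 5 summed UMIs of Spp1, Epcam, Krt7, Krt19, Sox9, Mgp, Dpt and Col1a1 made up 126 of 462 members in WT (27.3%, 95% binomial interval 23.3% to 31.6%) and 81 of 433 in C75S (18.7%, 15.1% to 22.7%). The share was 11.5% and 4.63% in the middle zone and 26.5% and 19.2% in the periportal zone, and deeper spots reach such a minimum more easily. With these spots left out before ranking, Cd74 was at 342, 328 and 275 CPM in WT and 406, 371 and 304 CPM in C75S, highest in the middle zone in both sections, and still higher than in the periportal zone. H2-Ab1 and H2-Eb1 were then also highest in the middle zone in both sections, and H2-Aa in C75S, while in WT H2-Aa was at 97.3, 99 and 79.2 CPM. None of the 11 genes then had all 4 intervals above 0, a loss that the choice of spots fixed for Col1a1, since it is one of the genes they were chosen by. Of the 11, 6 still had all 4 above 0 when spots were ranked on Hal, Gls2, Hsd17b13 and Sds over Cyp1a2, Oat and Cyp2c29, namely the 4 MHC class II genes, Gas6 and Mt1. This rank on other zone genes kept only 249 of the 462 members of WT and 226 of the 433 of C75S, so it describes largely different spots. Of the 11, only Ifi203, an interferon-inducible gene, kept all 4 ratios above 0 under the alternatives to the spot filter, the rank, the scaling, the weighting and the depth of spots, some by less than counting error. It rested on 119 and 123 UMIs in the outer mid-lobular zone of WT and C75S.

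Igkc, the constant region of the immunoglobulin kappa chain made by B cells and plasma cells, was at 36.6, 50.5 and 21.5 CPM in WT and 38.3, 68.2 and 28.6 CPM in C75S. It was highest in the outer mid-lobular zone in both sections, but it lay in few spots, and with the rank on other zone genes it was at 32.7, 37.7 and 39.6 CPM in WT, highest in the periportal zone. In WT 295 of 462 members and in C75S 251 of 433 had 0 UMIs of Igkc, and 1 member of C75S held 280 of its 608 UMIs there, against 98 of 438 in the highest member of WT. Without the highest spot of each zone, Igkc in C75S was at 37.3, 36.9 and 28 CPM, level with the middle zone. Cd79a and Ms4a1, which mark B cells, were at 6.46 CPM in WT and 8.97 CPM in C75S for Cd79a and 3.81 CPM in WT and 4.93 CPM in C75S for Ms4a1, and Cd3e, a T cell gene, at 3.81 CPM in WT and 4.15 CPM in C75S. Among 6 tested genes of the list of other leukocytes, 0 were at least 1.2-fold higher than in the middle zone and 1, Cd79a, was higher than in the periportal zone. The shares over all genes were 1.68% and 3.43%.

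**Figure D3:**
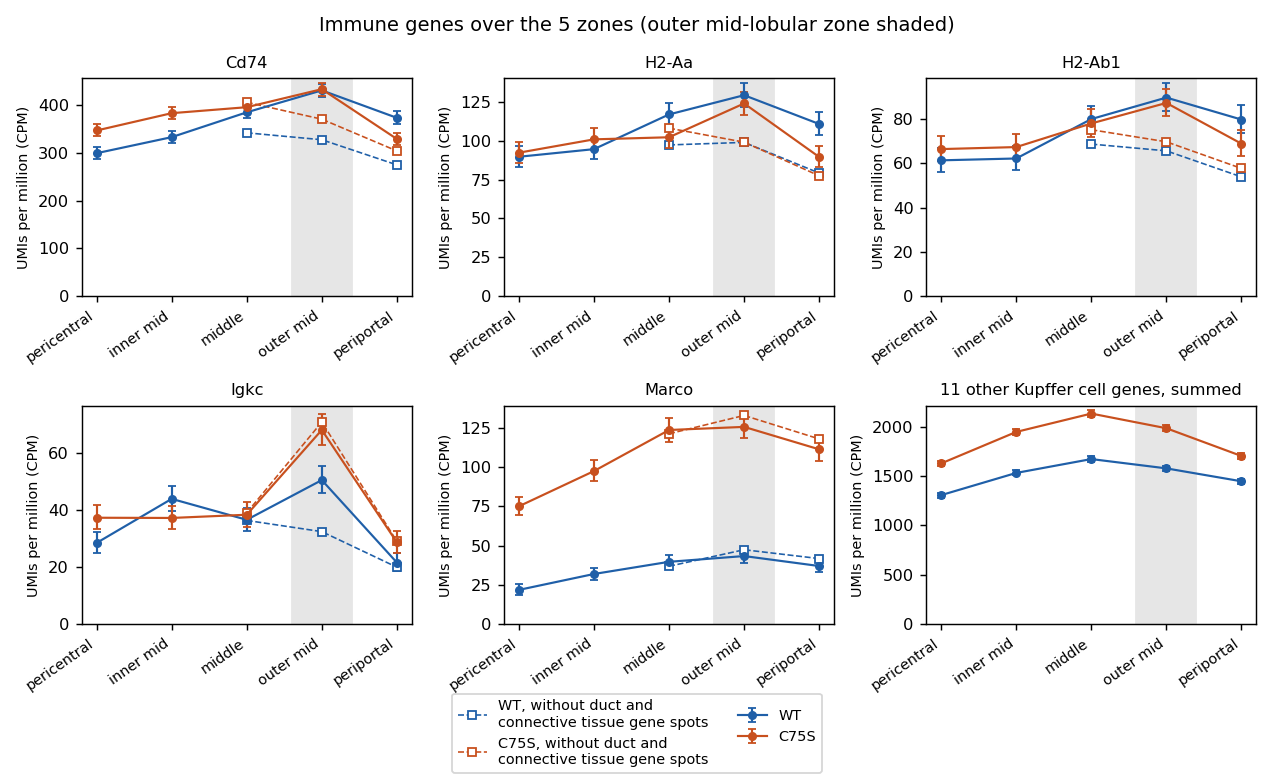
CPM (y axes) of Cd74, H2-Aa, H2-Ab1, Igkc, Marco and the sum of 11 other Kupffer cell genes over the 5 zones (x axes), WT blue and C75S orange, bars 95% Poisson intervals. Open squares on dashed lines, drawn for the last 3 zones and single genes, give the level without spots rich in duct and connective tissue genes, where Cd74 was at 328 in place of 431 CPM in the outer mid-lobular zone of WT.

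Kupffer cell genes were near their levels in the neighbouring zones. Of 12 measured, 0 were 1.2-fold higher or lower than in either neighbour, which is near the 3.44% and 4.46% of all genes tested, with medians over the middle zone of -0.10 and -0.09. The most abundant, Cd5l, was at 457, 435 and 397 CPM in WT and 653, 599 and 506 CPM in C75S, highest in the middle zone. Marco alone of the 12 had its highest level in the outer mid-lobular zone in both sections, at 39.6, 43.3 and 36.9 CPM in WT and 124, 126 and 111 CPM in C75S. The intervals of its log2 ratio over the middle zone, 0.13 (-0.08 to 0.34) in WT and 0.02 (-0.10 to 0.15) in C75S, included 0. Over the periportal zone the log2 ratio was 0.23 (0.01 to 0.46) and 0.17 (0.05 to 0.30). Per 100 UMIs of the 11 other Kupffer cell genes, Marco had 1.66, 2.07, 2.36, 2.74 and 2.55 UMIs from the pericentral to the periportal zone of WT. In C75S the same ratio was 4.61, 5.0, 5.8, 6.33 and 6.54. Marco was thus more abundant relative to other Kupffer cell genes towards the outer mid-lobular zone, where its log2 ratio to the pericentral zone, so scaled and with log-normal counting intervals, was 0.73 (0.46 to 0.99) in WT and 0.46 (0.31 to 0.60) in C75S, and differed from the periportal zone by less than counting error. Without the spots rich in duct and connective tissue genes Marco was at 36.7, 47.3 and 41.6 CPM in WT and 121, 133 and 118 CPM in C75S, with the outer mid-lobular zone highest in both sections. With the rank on other zone genes Marco was at 42.6, 40.1 and 37.7 CPM in WT, highest in the middle zone, and at 110.0, 136 and 106 CPM in C75S.

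Genes of the sinusoidal endothelium were at like levels in the middle and outer mid-lobular zones and lower in the periportal zone. Of 10 sinusoidal endothelial genes, 0 passed the fold against the middle zone, and 7 were higher than in the periportal zone, with medians of 0.30 and 0.30 beside 0.05 and 0.00 over all genes. For this list and those that follow, 1.68% of all genes were higher and 1.75% lower than in the middle zone. Against the periportal zone, 3.43% of all genes were higher. Oit3, a gene of these cells, was at 84.9, 84.9 and 57.8 CPM in WT and 85.1, 83.7 and 65.3 CPM in C75S. Stab1, a scavenger receptor, was at 114, 102 and 77.9 CPM in WT and 102, 94.4 and 76.4 CPM in C75S. Of 10 stellate cell genes, 5 were higher than in the periportal zone, among them Dcn, at 107, 109 and 84.7 CPM in WT and 152, 132 and 92.3 CPM in C75S, and 1, Pdgfrb, was higher than in the middle zone. Rspo3 and Wnt2, signals that central vein endothelium sends to pericentral hepatocytes, were the 2 of 5 central endothelial genes that were lower than in the middle zone, and Rspo3 was at 18, 11 and 9.19 CPM in WT and 18.9, 14.7 and 7.88 CPM in C75S. Ntn4, a netrin of portal vessels, was the 1 of 4 portal endothelial genes above the middle zone, at 16.3, 25.5 and 25.9 CPM in WT and 16.3, 24 and 23.6 CPM in C75S. Thbd, Kit and Cdh13 of the central list and Vwf of the portal list were higher than in the periportal zone. Vwf did not keep this direction in C75S with the rank on other zone genes (-0.054). Nor did Thbd in WT with spots matched on total UMIs (-0.29).

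Bile duct and matrix genes were well above the middle zone. Spp1, osteopontin, a gene of bile duct cells, was at 76.6, 178 and 219 CPM in WT and 47.1, 145 and 127 CPM in C75S, and its log2 ratio over the middle zone ranked first, 1.22 (1.09 to 1.35) and 1.62 (1.45 to 1.79). Against the periportal zone Spp1 was lower in WT, at -0.30 (-0.40 to -0.20), and higher in C75S, at 0.19 (0.07 to 0.31). This opposite direction did not hold with the rank on other zone genes, which gave -0.25 and -0.14. Of the cholangiocyte list 2 genes of 8, Spp1 and Sox9, were abundant enough to be tested, both were higher than in the middle zone, and Epcam, Krt7 and Krt19 were at 9.58 CPM in WT and 7.51 CPM in C75S, 7.15 CPM in WT and 2.91 CPM in C75S and 3.11 CPM in WT and 1.79 CPM in C75S. Of 9 tested portal fibroblast and matrix genes, 6 were higher than in the middle zone, and 2, Col1a1 and Eln, higher than in the periportal zone, beside 1.68% and 3.43% of all genes. Eln did not keep this direction in C75S with the rank on other zone genes (-0.15), or in WT without the spots rich in duct and connective tissue genes (-0.41) and with spots matched on total UMIs (-0.14). Col3a1, a fibrillar collagen, was at 71.6, 95.2 and 81.3 CPM in WT and 37.8, 53.7 and 40.0 CPM in C75S. Tagln, of smooth muscle, was at 15.7, 32.4 and 20.9 CPM in WT and 4.89, 9.42 and 9.76 CPM in C75S. The spots left out above were chosen by duct and connective tissue genes that did not include Col3a1 or Tagln. Without them Col3a1 was at 40.6, 37.2 and 35.7 CPM in WT and 38.8, 34.7 and 33 CPM in C75S.

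The metabolic and secretory lists varied in how many genes passed the fold, beside 3.44% of all genes against the middle zone and 4.46% against the periportal zone. In gluconeogenesis 1 of 6 genes, Pck1, was higher than in the middle zone and lower than in the periportal zone. Of 14 genes of amino acid breakdown, Hal and Sds were higher than in the middle zone, Oat was lower, and 6 were lower than in the periportal zone, among them Gldc and Got1, while the summed level of the list was 11661, 11433 and 11585 CPM in WT and 8900.3, 8704 and 8812 CPM in C75S. In lipogenesis Acly, ATP citrate lyase, was the 1 of 7 above the middle zone, at 199, 260.3 and 301 CPM in WT and 158, 203 and 227 CPM in C75S. No gene of the urea cycle (7 tested), cholesterol synthesis and uptake (8), GST, UGT and SULT enzymes (12), hepcidin and iron (12), coagulation and complement (10), core clock (12), immediate early (6) or heat shock (5) lists passed 1.2-fold against the middle zone, which for lists of this size is near the share over all genes. Against the periportal zone, Bmp6, an endothelial ligand that induces hepcidin, was the only one of those lists to pass, at 18.4, 17.8 and 12.1 CPM in WT and 12.5, 12.9 and 9.13 CPM in C75S. Acot1, an acyl-CoA thioesterase, was the 1 of 11 genes of beta-oxidation and ketogenesis to pass, lower than in the middle zone and higher than in the periportal one. Mup20 was higher than in the middle zone and Mup11 and Mup17 lower, with log2 ratios of 0.32 in WT and 0.31 in C75S for Mup20 and -0.36 in WT and -0.31 in C75S for Mup17. Of 7 CYP1 to CYP3 genes, Cyp2a4 was higher and Cyp1a2 and Cyp2c54 lower than in the middle zone. Among acute phase genes 0 of 9 passed against the middle zone and 1, Hpx, which binds heme, was lower than in the periportal zone. Interferon genes passed in 1 of 7 cases, Rsad2, against the middle zone, a direction that turned in WT under alternatives given below. Hypoxia and glucocorticoid genes passed in 0 of 9 cases against the middle zone and 1, Egln3, against the periportal zone. Of 4 red blood cell genes, Alas2 was the 1 to pass, lower than in the periportal zone. Of insulin and FOXO1 target genes, Pck1 was the 1 of 10 to pass against either neighbour.

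Within the zone, immune, duct, matrix and red blood cell genes varied most from spot to spot. The variation beyond Poisson counting, as an excess coefficient of variation, was 105% in WT and 96.1% in C75S for Cd74, beside medians of 9.76% and 8.01% over 4055 genes. The tenth of spots richest in Spp1 held 63.3% and 64% of its UMIs, and the tenth richest in Cd74 37% and 31.9%. Rsad2, the antiviral protein viperin, was concentrated more than Spp1 in WT and less in C75S, with 79.9% and 55.7% of its UMIs in the tenth of spots richest in it, and 1 spot of WT held 68 of its 303 UMIs, while 354 of 462 members there had none. With the highest spots left out, Rsad2 in WT was at 19.5, 27.2 and 16.6 CPM. In C75S it was then at 21.9, 24.6 and 23.1 CPM, a log2 ratio over the middle zone of 0.17, so that Rsad2 no longer passed 1.2-fold in both sections. For Rsad2 in WT, the log2 ratio over the middle zone became -0.076 with the rank on other zone genes. It became -0.16 with spots matched on total UMIs. Ifit1 and Oasl1, other interferon-stimulated genes, were at 11.9, 15.6 and 8.69 CPM in WT and 10.5, 10.5 and 11.4 CPM in C75S for Ifit1 and 12.3, 22.6 and 15.2 CPM in WT and 10.5, 12.1 and 12.6 CPM in C75S for Oasl1, higher than both neighbours in WT. The log2 ratio over the middle zone in WT was 0.39 (0.02 to 0.78) for Ifit1 and 0.88 (0.53 to 1.23) for Oasl1. These ratios became -0.14 and 0.16 with the rank on other zone genes, and -0.035 and 0.39 without the spots rich in duct and connective tissue genes. In C75S the interferon list summed to 177, 178 and 173 CPM, against 168, 207 and 154 CPM in WT.

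Between the sections, the outer mid-lobular zone of C75S held more RNA of 4 insulin and FOXO1 target genes, 7 immediate early genes and 3 Kupffer cell genes, and less of 8 clock, 8 matrix and both metallothionein genes. Of 10213 genes with at least 50 UMIs, 267 (2.61%) were at least 1.5-fold higher and 614 (6.01%) at least 1.5-fold lower, 8.63% in either direction, with the interval apart from 0 for 233 and 539. The median log2 ratio over all genes was -0.07. The split between higher and lower depended on the scaling, and was 372 and 448 with TMM factors, 357 and 460 when centred on the median gene, and 325 and 491 when the 20 most abundant genes were left out of the totals. Without the spots rich in duct and connective tissue genes it was 306 and 414.

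Igfbp1, a liver-secreted binding protein induced in fasting, was at 42.1 CPM in WT and 274 CPM in C75S, a log2 ratio of 2.7 (95% interval 2.54 to 2.87). G6pc, glucose 6-phosphatase, was at 89.3 CPM in WT and 225 CPM in C75S, a log2 ratio of 1.33 (95% interval 1.21 to 1.45), and Igfbp2 at 1150.2 CPM in WT and 2527 CPM in C75S, a log2 ratio of 1.14. Among 10 insulin and FOXO1 target genes, 4 were higher, these 3 and Irs2, and 0 lower, while Pck1 had a log2 ratio of -0.38. With the rank on other zone genes Irs2 fell short of 1.5-fold (0.53). Of 9 immediate early genes, 7 were higher and 0 lower, with a median log2 ratio of 1.17, and Egr1 was at 109 CPM in WT and 299 CPM in C75S. Of 13 clock genes, 8 were lower, with a median of -1.22 over the list, and 1, Arntl, was higher. Beside these lists, 2.61% of all genes were higher and 6.01% lower. Dbp, a transcription factor of clock output, was at 207 CPM in WT and 75.2 CPM in C75S, and Arntl, the activator of the clock, at 6.11 CPM in WT and 18.5 CPM in C75S.

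Marco differed most among Kupffer cell genes, at 43.3 CPM in WT and 126 CPM in C75S, a log2 ratio of 1.54 (95% interval 1.37 to 1.71). Of the 12, Marco, Timd4 and Adgre1 were higher and 0 lower, with a median of 0.43. Timd4 fell short of 1.5-fold with the rank on other zone genes (0.53). It also did so without the spots rich in duct and connective tissue genes (0.54). Clec4f, a lectin of Kupffer cells, had a log2 ratio of 0.16, and Cd163, a hemoglobin scavenger receptor, of -0.47. The MHC class II genes that led the zone hardly differed between the sections, with log2 ratios of 0.01 (95% interval -0.06 to 0.07) for Cd74 and -0.06 (95% interval -0.18 to 0.06) for H2-Aa. Of 10 portal fibroblast and matrix genes, 8 were lower in C75S, with a median of -1.31, and of 3 tested smooth muscle genes 3 were lower, beside the smaller share of spots rich in duct and connective tissue genes given above. Of 5 tested cholangiocyte genes Krt7 and Cldn7 were lower, and of 4 red blood cell genes Hba-a2 and Hbb-bs, while S100a9, of neutrophils, was the 1 of 9 other leukocyte genes above the fold. Without spots rich in duct and connective tissue genes, the log2 ratio of Col3a1 went from -0.83 to -0.10 and that of Col1a2 from -1.23 to -0.19. Those of Krt7, at -0.019, Cldn7, at 0.026, and Tagln, at -0.28, were then within the fold. So were those of Hba-a2, at -0.40, and Hbb-bs, at -0.43. The log2 ratios of Col1a1, at -0.98, Dpt, at -0.59, and Clec3b, at -2.14 with under 2 CPM left in either section, stayed past 1.5-fold lower. So did those of Acta2, at -3.05, and Myh11, at -0.92, of smooth muscle, with 2.17 and 1.74 CPM left in WT. Eln became 0.38, Mgp -0.048 and Gsn -0.27. Krt7, Col1a1, Dpt and Mgp are among the genes by which the spots left out were chosen. Of 10 sinusoidal endothelial genes 0 passed the fold, and of 10 stellate cell genes 1, Bmp10, was higher, counts near the 8.63% of all genes that passed it in either direction.

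Hepatocyte genes differed in both directions. Serpina1e, one of several near-identical alpha-1 antitrypsin genes among which probe counts may be shared, was at 1518 CPM in WT and 144 CPM in C75S, a log2 ratio of -3.39, while its relative Serpina1b was at 3572 and 3643 CPM. Mt1 and Mt2, the metallothioneins, had log2 ratios of -1.27 and -1.59. Cyp7a1 was at 128 CPM in WT and 46.9 CPM in C75S, a log2 ratio of -1.45 (95% interval -1.62 to -1.29), and it was the 1 of 8 bile acid synthesis genes and the 1 of 15 pericentral genes below the fold. Thrsp, which promotes lipogenesis, had a log2 ratio of -1.68, while Scd1, stearoyl-CoA desaturase, had 0.96 and Fasn -0.28. Of 18 periportal genes, Sds, Gls2 and Asl were lower and Hsd17b6 higher, with a median of -0.32. Tat, tyrosine aminotransferase, had a log2 ratio of -1.0, and Sds, Gls2 and Tat were the 3 of 14 amino acid breakdown genes below the fold. Hamp, hepcidin, was the 1 of 12 hepcidin and iron genes below the fold, at 928 CPM in WT and 526 CPM in C75S, while Hamp2 had a log2 ratio of -0.05. Acot1 and Pdk4 were the 2 of 12 genes of beta-oxidation and ketogenesis above the fold. The fibrinogen genes Fga, Fgb and Fgg had log2 ratios of 0.57, 0.50 and 0.55, and of 10 acute phase genes, 1 passed upward, Orm2, and Saa3 and Lcn2 downward. Beside 8.63% of all genes in either direction, 0 of 10 coagulation and complement, 0 of 7 CYP1 to CYP3 and 0 of 5 heat shock genes passed the fold, and Sult1a1 was the 1 of 12 GST, UGT and SULT genes to pass, downward. Asl of 7 urea cycle genes and Oasl1 of 7 interferon genes were lower. Socs2, Cish and Mup17 were higher and Mup20 lower in the growth hormone list of 9, and Mt1, Mt2, Per1 and Tsc22d3 were the 4 of 10 hypoxia and glucocorticoid genes that were lower.

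**Figure D4:**
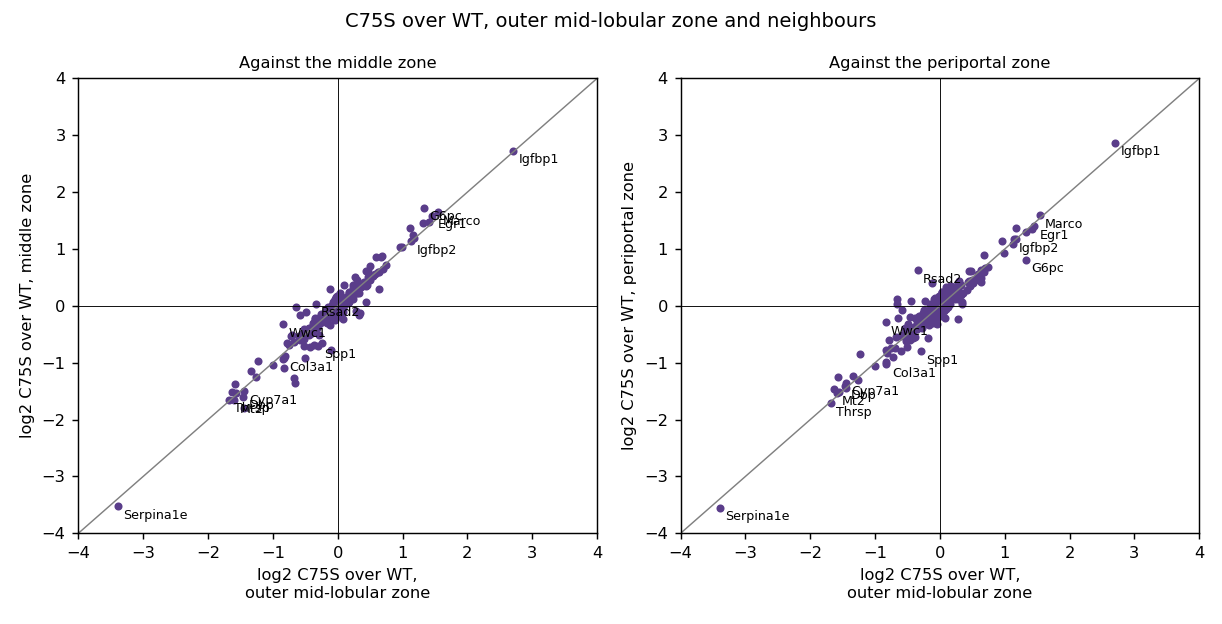
Log2 ratio between sections, C75S relative to WT, in the outer mid-lobular zone (x axes) against the same ratio in the middle (left) and periportal (right) zone (y axes), for named genes whose UMIs in the outer mid-lobular zone came to at least 500 in all; the grey line marks equal ratios. Genes from Serpina1e at -3.39 to Igfbp1 at 2.7 lie close to the line, and G6pc lies above it on the left and below it on the right.

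The differences between sections of the more abundant genes in the outer mid-lobular zone were mostly present in both neighbours. Of the genes past 1.5-fold with at least 500 UMIs, 65 were higher, all 65 had the same sign in both neighbours and 51 passed the fold in both. Of 98 that were lower, 98 had the same sign in the middle and 96 in the periportal zone, and 56 passed in both. Over all genes past the fold, which include those with few UMIs, the share was smaller, since 102 of 267 higher and 186 of 614 lower genes passed in both neighbours. The fold was passed downward by 521 genes in the middle, 614 in the outer mid-lobular and 450 in the periportal zone, and upward by 268, 267 and 313. The ratio in the outer mid-lobular zone lay at least 1.5-fold above that of the neighbours summed in 153 of 10211 genes (1.5%) and below it in 230 (2.25%), with counting intervals apart from 0 in 72 (0.705%) and 127 (1.24%). With a minimum of 200 UMIs these counts fell to 2 and 22. Spp1 lay above its neighbours by 0.43 (0.28 to 0.57) on the log2 scale, and Rsad2 differed from them by -0.66 (-0.98 to -0.34), and its UMIs lay in few spots. With the rank on other zone genes these differences were 0.06 (-0.084 to 0.20) for Spp1 and -0.045 (-0.37 to 0.28) for Rsad2. Wwc1, Baz1b, Lrrfip1 and Snrpa1 also lay below, and Mepce, Phf20l1, Ascc2 and Fkbp15 above, all with under 60 CPM, and of these 10 genes only Ascc2 had an interval apart from 0 with the rank on other zone genes, 0.31 (0.032 to 0.59).

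G6pc differed in the shape of its profile. In WT it stood at 66.3, 89.3 and 133 CPM in the middle, outer mid-lobular and periportal zones, and in C75S at 219.7, 225 and 233. Its log2 ratio over the middle zone was 0.43 (0.27 to 0.59) in WT and 0.03 (-0.06 to 0.13) in C75S, and over the periportal zone -0.57 (-0.71 to -0.43) and -0.05 (-0.14 to 0.04). The level was thus graded in one section and nearly flat in the other, and the log2 ratio between sections went from 1.73 in the middle zone through 1.33 to 0.81 in the periportal zone. Pck1 kept its gradient in both sections.

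**Figure D5:**
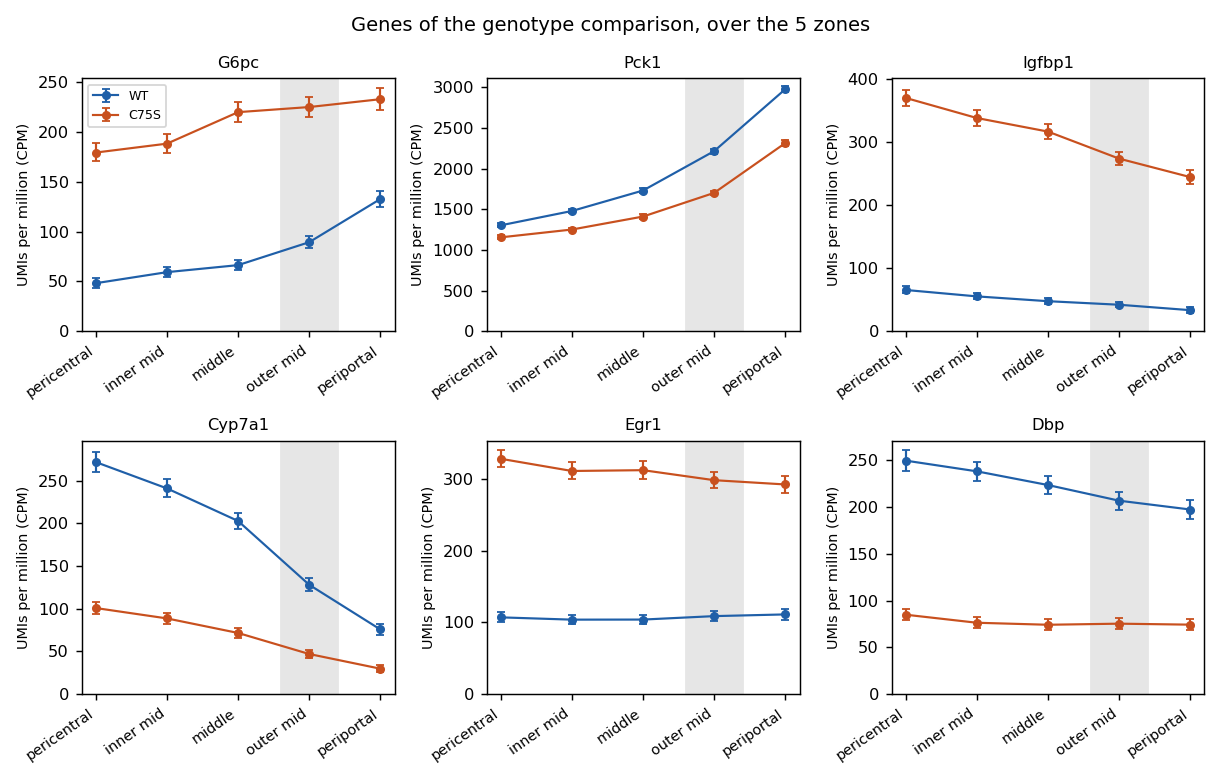
CPM (y axes) of G6pc, Pck1, Igfbp1, Cyp7a1, Egr1 and Dbp over the 5 zones (x axes), WT blue and C75S orange, bars 95% Poisson intervals, outer mid-lobular zone shaded. G6pc climbed to 133 CPM in the periportal zone of WT and stayed between 219.7 and 233 CPM over the same zones of C75S.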

How the data were processed

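The deposited files hold counts: the authors ran Space Ranger 2.0.1 with the mm10 reference and a mouse probe set, which gives whole UMI counts per gene and spot under tissue for 19465 genes. Of 11 repeated gene symbols the first entry was used, and 0 columns belonged to other samples. In the gene lists 19 entries were not measured, with Cyp2a5 counted in both the pericentral and the CYP1 to CYP3 list. Spot coordinates were not used here. Kept spots were ranked within a section, and UMIs summed per zone. A gene was compared between zones with at least 50 UMIs in the spots compared and at least 200 UMIs over the 5 zones, both in each section. Between sections it was compared with at least 50 UMIs over both sections in the outer mid-lobular zone. A call is a size (1.2-fold in both sections, or 1.5-fold between sections), not a test. The 325 named genes were the markers and members of 32 gene lists, and the 10 most extreme genes of each ranking with at least 200 UMIs in the outer mid-lobular zone of each section (5, with at least 500 UMIs, for ratios against the neighbours). The members of the zone and the gene lists were chosen with earlier results of these data known. Tools were Python 3.11.15, numpy 2.4.6, scipy 1.17.1, pandas 2.3.3, matplotlib 3.10.9 and R 4.3.3 with edgeR 4.0.16 for TMM factors only. The alternatives covered the spot filter, ranking, scaling, weighting, depth matching, minimum UMIs and fold. Some genes of the lists are not reported here.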

Additional observations from a re-analysis of the deposited data

Results flagged for a closer look

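For 7 of the named genes, the ratio of the outer mid-lobular zone to a neighbour pointed in opposite directions in the sections with both counting intervals apart from 0, and with 1 section per genotype these differences were not tested. Over the middle zone, the red blood cell gene Hba-a2 had log2 ratios of -0.46 in WT and 0.23 in C75S. These became -0.065 and 0.15 without the spots rich in duct and connective tissue genes. With the rank on other zone genes they were -0.30 and 0.46. Over the periportal zone, Spp1 of bile duct cells had -0.30 and 0.19, which became -0.25 and -0.14 with the rank on other zone genes, and Scd1, stearoyl-CoA desaturase, 0.066 and -0.11. Smaller opposite log2 ratios over the periportal zone were found for Serpinc1, antithrombin, at -0.020 and 0.080, and for the fibrinogen genes Fgg at -0.035 and 0.052, Fga at -0.041 and 0.039, and Fgb at -0.055 and 0.028.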

How the results depend on the processing

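No paired analysis was possible because each genotype had 1 section. Of 19617 recomputed values, 18365 stayed as reported, 1230 moved and 22 reversed, and the cause was not tested. Those that stayed include 1631 with a minimum of 10 UMIs and 1631 with a minimum of 200 UMIs, settings that could not change these values. Counts are given as higher and lower. Genes above both neighbours numbered 6 with no filter on spots, 2 without spots rich in duct and connective tissue genes, 6 with TMM factors, 7 centred on the median gene, 4 with equal weight per spot and 4 with spots matched on total UMIs. Genes below both numbered 0 with the rank on other zone genes, without the spots rich in duct and connective tissue genes, without the 20 most abundant genes in the totals and with matched spots, 7 with TMM factors and 2 when centred. Without the spots rich in duct and connective tissue genes, 71 genes were higher than in the middle zone. Genes lower than in the periportal zone numbered 158 with TMM factors and 214 with matched spots, which gave 253 genotype ratios above the neighbours. Matching kept 212 spots per zone and section and, between zones, dropped the minimum over the 5 zones. A minimum of 10 UMIs gave 527 and 1214 genes between sections and 586 and 719 ratios above and below the neighbours. A minimum of 200 UMIs gave 56 and 78 against the middle zone, 145 and 44 against the periportal zone, 113 and 237 between sections, and 2 and 22 against the neighbours' ratio. Folds of 1.5 and 2 gave 19 and 6, 18 and 7, 58 and 125, and 18 and 32. The WT section alone gave 603 and 690, and 1178 and 362, with 70 genes above and 29 below both neighbours. The C75S section alone gave 574 and 743, and 929 and 727, with 53 above and 107 below. With the rank on other zone genes, log2 ratios reversed for Eln (-0.15) and Vwf (-0.054) over the periportal zone in C75S, and in WT for Igkc (-0.073) and Slc39a14 (0.0080) over the periportal and Rsad2 (-0.076) over the middle zone. Without the spots rich in duct and connective tissue genes, ratios over the middle zone reversed in WT for Col3a1 (-0.13), Dpt (-0.0050), Eln (-0.17), Igkc (-0.17), Mgp (-0.61) and Tagln (-0.10), and in C75S for Col3a1 (-0.16), Dpt (-0.25), Mgp (-0.22) and Col1a1 (-0.25), of which Dpt, Mgp and Col1a1 are among the genes by which the spots were chosen. Eln over the periportal zone in WT became -0.41, and between sections Eln became 0.38 and Cldn7 0.026. With matched spots in WT, Thbd (-0.29) and Eln (-0.14) reversed over the periportal and Rsad2 (-0.16) over the middle zone. Leaving out the spot with the most UMIs, an alternative chosen after seeing the data, gave Igkc -0.017 over the middle zone in C75S.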
